A study of Mus musculus with 10 samples.

Results

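The mitochondrial ribosomal proteins were examined as the protein-coding genes whose symbols start with Mrpl or Mrps followed by a digit, in counts of sequencing reads per gene from mouse heart. The symbol rule found 78 genes among the 40690 of the deposited table, 48 named Mrpl and 30 named Mrps. They carry 77 symbols, since Mrps23 is listed under 2 gene identifiers. Mrpl33 was not analysed here. Ventricles came from 5 mice that had undergone a sham operation, the control surgery of ischemia-reperfusion experiments, and from 5 naive mice without surgery. All 10 mice were male, of strain C57BL/6 and 10 weeks old. The labels used here do not give the time between operation and tissue collection. Polyadenylated RNA was sequenced without strand information, with 10654107 to 21537135 counted reads in sham libraries and 9683181 to 17577906 in naive libraries, and a median of 386 reads per gene and library for the tested mitochondrial ribosomal protein genes.

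Mitochondria make the core membrane subunits of the respiratory chain on their own ribosomes. These ribosomes have a small subunit, which reads the messenger RNA, and a large subunit, which forms peptide bonds. Their ribosomal RNAs are encoded by mitochondrial DNA, whereas all their proteins are encoded in the nucleus, made in the cytosol and imported. Many of the proteins descend from bacterial ribosomal proteins and others were added in mitochondria. Heart muscle is rich in mitochondria and relies on their oxidative metabolism.

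Promoters are shown first because the members lie scattered over 17 chromosomes, with the most, 11, on chromosome 11, so that a shared feature of their start sites is of interest. RefSeq promoter windows of GRCm38.p6, 250 bases before to 50 bases after each start, were available for 68 of the 77 symbols. Both strands were searched for 8 motifs as exact letters. The letters CCGGAAG, recognised by ETS factors such as GABP, were found in 24 of 68 member promoters (35.3%), in 17.4% of the promoters of 9858 tested protein-coding genes and in 9.12% of all 27025 promoters. The letters GCGCA, any base, GCGC, recognised by nuclear respiratory factor 1 (NRF1), were found in 13 member promoters (19.1%), against 10.3% and 4.78%. The letters ATGGCGG, recognised by YY1, were also found in 13 (19.1%), against 8.22% and 4.19%. Any of these 3 was present in 40 of 68 (58.8%), against 31.2% of tested protein-coding genes and 16.0% of all promoters. Of the other motifs, GGGCGG, the GC box, was in 50% of member promoters and 65.1% of those of tested genes, CCAAT in 38.2% and 37.9%, the E-box CACGTG in 7.35% and 10.2%, TATAAA in 5.88% and 6.96%, and AAGGTCA, bound by oestrogen-related receptors, in 5.88% and 3.08%. A match is a description of letters and not of a bound site. No motif contains another.

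Windows of 30 bases around matches are shown for genes that were lower in sham ventricles, 5′ to 3′ on the gene's strand, with the matched letters in capitals. Distances run from the first matched letter to the RefSeq start. That start can differ from the end of the gene's span in GENCODE M21, the annotation used for gene positions below. The NRF1 match of Mrpl39 and the ETS match of Mrpl3 lie before the RefSeq start but inside the GENCODE span. The NRF1 match of Mrps9 begins before the RefSeq start and runs across it. The NRF1 letters lay 125 bases before the start of Mrpl39 (chr16:84735350-84735379, minus strand), 81 before that of Mrpl12 (chr11:120484546-120484575, plus strand), 28 before that of Mrpl9 (chr3:94443298-94443327, plus strand) and 5 before that of Mrps9 (chr1:42851218-42851247, plus strand).
Mrpl39 NRF1 match: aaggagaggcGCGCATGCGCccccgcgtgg
Mrpl12 NRF1 match: tattgtctccGCGCCTGCGCgtcgcaccgc
Mrpl9 NRF1 match: aggcgcagctGCGCATGCGCggggtccttc
Mrps9 NRF1 match: tgggaggtctGCGCCTGCGCagtctccagg

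ETS letters lay 19 bases before the start of Mrpl3 (chr9:105053238-105053267, plus strand) and 48 before that of Mrps27 (chr13:99344727-99344756, plus strand). YY1 letters lay 30 bases after the start of Mrpl37 (chr4:107066819-107066848, minus strand), 30 after that of Mrps2 (chr2:28468084-28468113, plus strand), 16 after that of Mrpl9 (chr3:94443340-94443369, plus strand) and 18 after that of Mrps27 (chr13:99344792-99344821, plus strand).
Mrpl3 ETS match: tgagaaacggaCCGGAAGtggcccggctgt
Mrps27 ETS match: tggtaggaccaCTTCCGGcggaggcgggct
Mrpl37 YY1 match: cacgggcaaagATGGCGGcgtccaggtaga
Mrps2 YY1 match: tgtccacgcgcCCGCCATggcgcccgctcc
Mrpl9 YY1 match: gctccgctgtcATGGCGGcctctgtggctc
Mrps27 YY1 match: tgcgctccaagATGGCGGctcccatggtgc

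Sham 4 stood apart in these genes, and it also stood apart over all tested genes. Differences between paired libraries of a group were measured as chi-square per degree of freedom of their read counts. Pairs of sham libraries that included sham 4 had values of 72.7 to 95.4. The other sham pairs had 10.1 to 22.3 and the naive pairs 9.93 to 62.9. Relative to the mean of the naive libraries, on the scale log2(CPM + 0.5), where CPM is the read count scaled to library size with trimmed mean of M-values (TMM) factors, the median over the 74 tested members was -0.27 in sham 1, -0.29 in sham 2, -0.35 in sham 3, 0.04 in sham 4 and -0.24 in sham 5. The naive libraries lay between -0.03 and 0.12, and the median over all tested genes lay between -0.04 and 0.02 in every library. Sham 4 therefore sat among the naive libraries for these genes and the other sham libraries below them. Members below their naive mean numbered 66, 69, 72, 26 and 67 of 74 in sham 1 to 5, against 39, 45, 46, 21 and 36 in naive 1 to 5. The summed level of all members was 2420, 2433, 2272, 2978 and 2412 CPM in sham 1 to 5, against 2995, 2893, 2905, 3057 and 2891 CPM in naive 1 to 5. Sham 4 held the highest sham value for 63 of 74 members (85.1%), against 29.8% of all tested genes, and sham 3 the lowest for 32 (43.2%), against 18.2%. Among naive libraries, naive 4 held the highest value for 33 members (44.6%), against 19.6% of all tested genes.

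**Figure D1:**
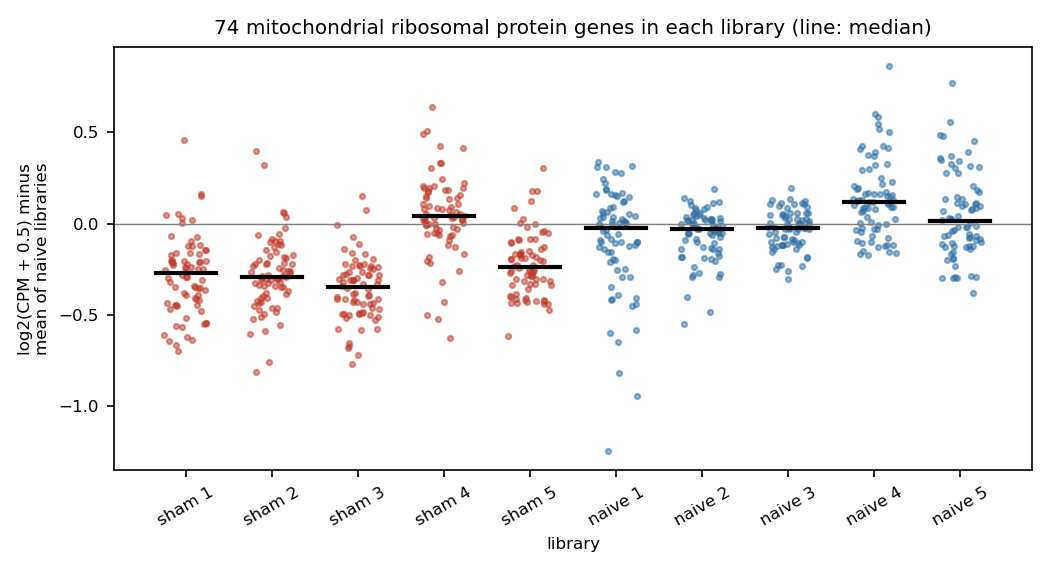
Each point is 1 of the 74 tested mitochondrial ribosomal protein genes in 1 library, as log2(CPM + 0.5) minus the mean of the naive libraries, with the sham libraries on the left, the naive libraries on the right and a black line at each median. The medians of sham 1, 2, 3 and 5 lie between -0.35 and -0.24, whereas sham 4 lies at 0.04, within the range of the naive libraries.

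Of the 74 members with enough reads to be tested, 19 fell in sham ventricles, 0 rose and 55 did not pass the threshold (edgeR quasi-likelihood test with TMM factors, Benjamini-Hochberg adjusted p under 0.05 over 13622 genes), whereas library size alone gave 2 lower and 4 higher. The 19 are 25.7% of those tested, while 15.5% of all tested genes fell and 17.2% rose. At an unadjusted p under 0.05, 32 members were lower and 1 was higher, where 21.8% of all tested genes were lower and 20.6% higher. DESeq2 called 22 members lower (29.7%) and 0 higher, where it called 16.2% of all tested genes lower. The median log2 fold change of sham over naive was -0.24, or 84.5% of the naive level, against -0.05 over all tested genes. The values spanned -0.67 to 0.26 with the middle 50% between -0.31 and -0.14, and those of the 55 members that did not pass lay between -0.53 and 0.26. A negative fold change was found for 68 of 74 members (91.9%), against 54.9% of all tested genes. Scaled by library size alone, without TMM factors, the median of all genes was 0.22, that of the members 0.02, and 30 of 74 members were negative, while the difference between members and all genes stayed at -0.20. Under that scaling 94.0% of the calls over the whole table were higher.

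**Figure D2:**
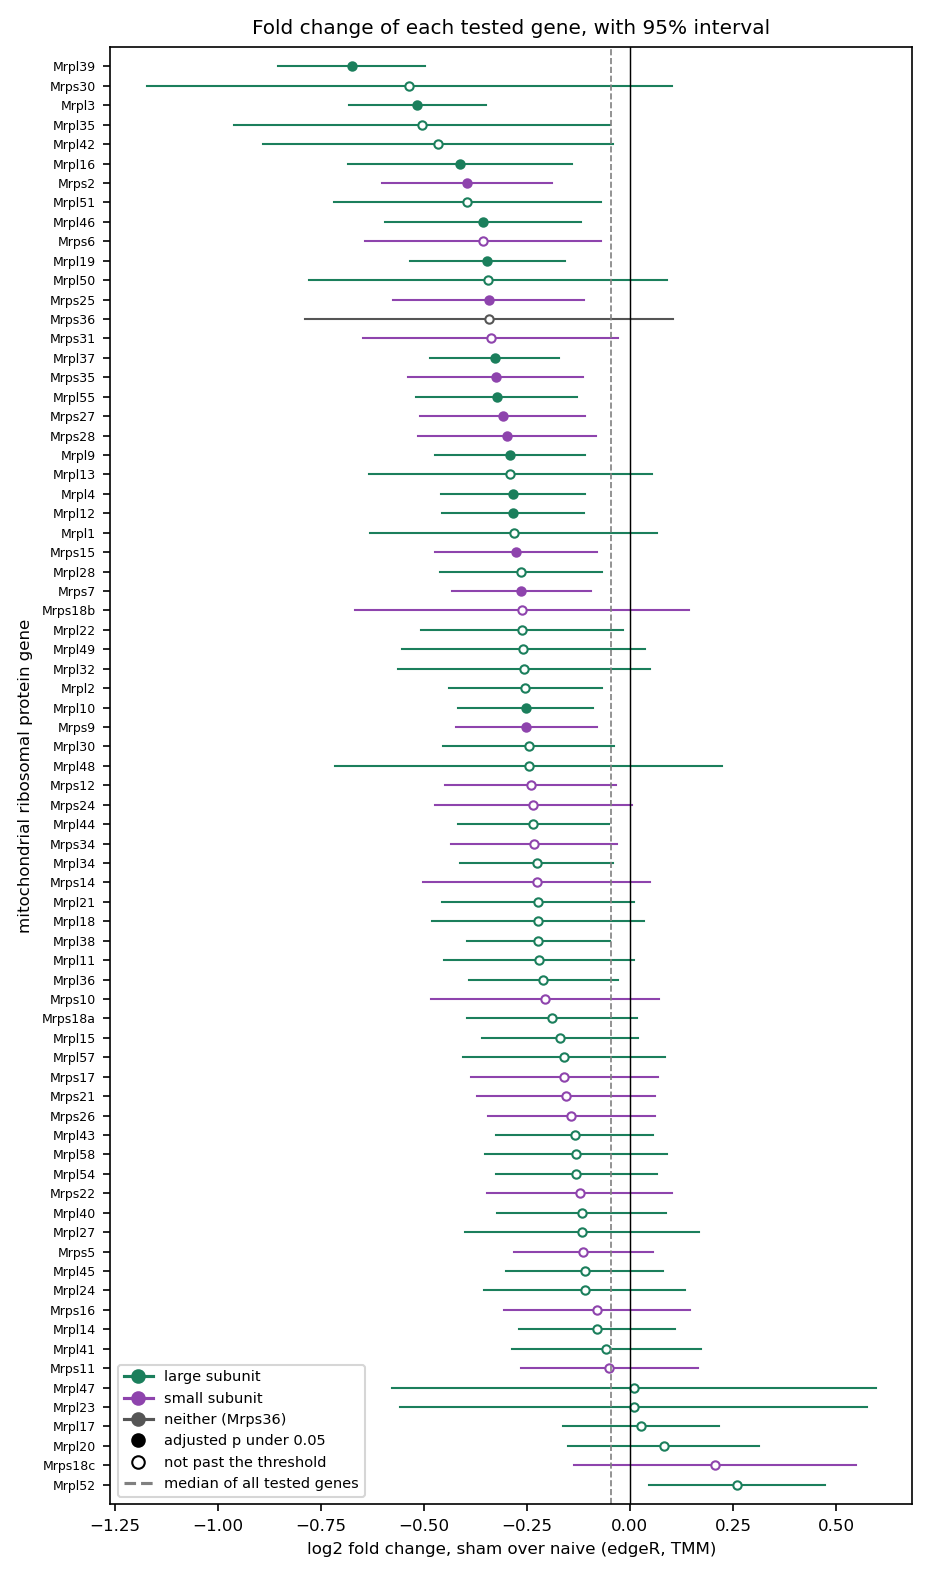
Log2 fold change of sham over naive ventricles (TMM scaling) for each tested mitochondrial ribosomal protein gene with its 95% interval, ordered by value and coloured by subunit. The 19 filled points are past adjusted p = 0.05, all to the left of 0, and the dashed line marks the median of all tested genes at -0.05. With library size alone the member median was 0.02 and that of all tested genes 0.22.

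The count of members called lower, and whether its share exceeded that of all tested genes, depended on single libraries. It was 30 without sham 4 (40.5% of members, against 13.1% of all tested genes), and the median log2 fold change was then -0.29. The share of members was below that of all tested genes without sham 1 (11 members, 14.9% against 15.6%), sham 2 (7 members, 9.46% against 10.6%), sham 3 (5 members, 6.76% against 11.9%), sham 5 (6 members, 8.11% against 10.8%) or naive 4 (9 members, 12.2% against 14.6%). It was 13.5% against 12.7% without naive 2 (10 members), 18.9% against 12.4% without naive 3 (14 members), 24.3% against 14.1% without naive 5 (18 members) and 25.7% against 16.2% without naive 1 (19 members). Without both sham 4 and naive 1, an alternative added after seeing the data, 38 were lower (51.4%, against 15.7% of all tested genes) and 0 higher. Of the 19, 18 were among them. With all libraries and a block for the replicate number, 34 members were lower (45.9%, against 20.6% of all tested genes) and 1 was higher. Mrpl39 and Mrpl3 alone were lower and past the threshold in each of 22 alternatives, and together with Mrpl37, Mrps2 and Mrpl19 in each of the 10 fits that left out 1 library. In these 5 genes, and in no other of the 74 members, all 5 sham libraries lay below all 5 naive libraries. That is 6.76% of members, a smaller share than the 9.18% of all tested genes. No member had all sham libraries above all naive libraries, which was so for 13.6% of all tested genes.

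The largest fall was in Mrpl39 (ENSMUSG00000022889, GRCm38 chromosome 16, 84717576 to 84735742, minus strand), a large subunit protein without a bacterial counterpart. It stood at 27.1, 23.6, 24.2, 25.9 and 26.1 CPM in sham 1 to 5, against 34.98, 40.9, 46.2, 42.6 and 37.8 CPM in naive 1 to 5. The groups did not overlap, and sham 4, which stood apart in most members, lay within the other sham libraries here. The log2 fold change was -0.67 ± 0.09 (SE, n = 5 each, edgeR adjusted p = 3.36e-05), or 62.6% of the naive level.

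Mrpl3, the counterpart of the bacterial protein L3 that lies close to the peptidyl transferase centre, stood at 33.4, 27.8, 28.4, 29.5 and 30.5 CPM in sham 1 to 5, against 39.0, 41.1, 42.6, 47.6 and 43.4 CPM in naive 1 to 5. Every sham library was below every naive library, and the log2 fold change was -0.52 ± 0.08 (SE, n = 5 each, edgeR adjusted p = 2.24e-04). Mrpl16, the counterpart of bacterial L16, stood at 17.8, 20, 20.7, 22.9 and 21.1 CPM in sham 1 to 5, against 19.99, 21.96, 27.5, 33 and 34.03 CPM in naive 1 to 5. The groups overlapped, since naive 1 and 2 lay within the sham range while naive 3, 4 and 5 were above it. Its log2 fold change was -0.41 ± 0.14 (SE, edgeR adjusted p = 0.0319).

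Mrpl37, another large subunit protein added in mitochondria, stood at 61.2, 63.7, 60.1, 70.4 and 68.9 CPM in sham 1 to 5, against 77.7, 82.4, 73.8, 87.3 and 85.8 CPM in naive 1 to 5. The groups did not overlap, and the log2 fold change was -0.33 ± 0.08 (SE, edgeR adjusted p = 0.00511). Mrpl19, the counterpart of bacterial L19, stood at 15.6, 17.4, 17.6, 17.1 and 17.1 CPM in sham 1 to 5, against 18.4, 21.5, 20.4, 24.2 and 23.2 CPM in naive 1 to 5. All sham values were lower than all naive values, with a log2 fold change of -0.35 ± 0.10 (SE, edgeR adjusted p = 0.0113). Mrpl19 shares 36.0% of its exon bases with Gcfc2 on the opposite strand, and reads without strand do not separate them. Mrpl46 stood at 14.03, 14.4, 14.2, 20.7 and 17.7 CPM in sham 1 to 5, against 18.8, 21.7, 19.4, 23.4 and 21.1 CPM in naive 1 to 5. Sham 4 reached the naive range while the other sham libraries were below it, and the log2 fold change was -0.36 ± 0.12 (SE, edgeR adjusted p = 0.0337).

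In the small subunit, Mrps2, the counterpart of bacterial S2, stood at 26.7, 29.4, 28.3, 26.3 and 32.8 CPM in sham 1 to 5, against 35.2, 32.9, 34.3, 39.9 and 46.3 CPM in naive 1 to 5. The groups did not overlap, although sham 5 and naive 2 were almost level, and the log2 fold change was -0.39 ± 0.11 (SE, edgeR adjusted p = 0.00924). Mrps25, a small subunit protein added in mitochondria, stood at 10.4, 13.1, 12.6, 15.1 and 12.7 CPM in sham 1 to 5, against 14.04, 16.0, 14.9, 18.5 and 17.8 CPM in naive 1 to 5. Sham 4 alone lay within the naive range, and the log2 fold change was -0.34 ± 0.12 (SE, edgeR adjusted p = 0.0354). Of its exon bases 69.8% are shared with Nr2c2 on the opposite strand, so its value is uncertain.

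**Figure D3:**
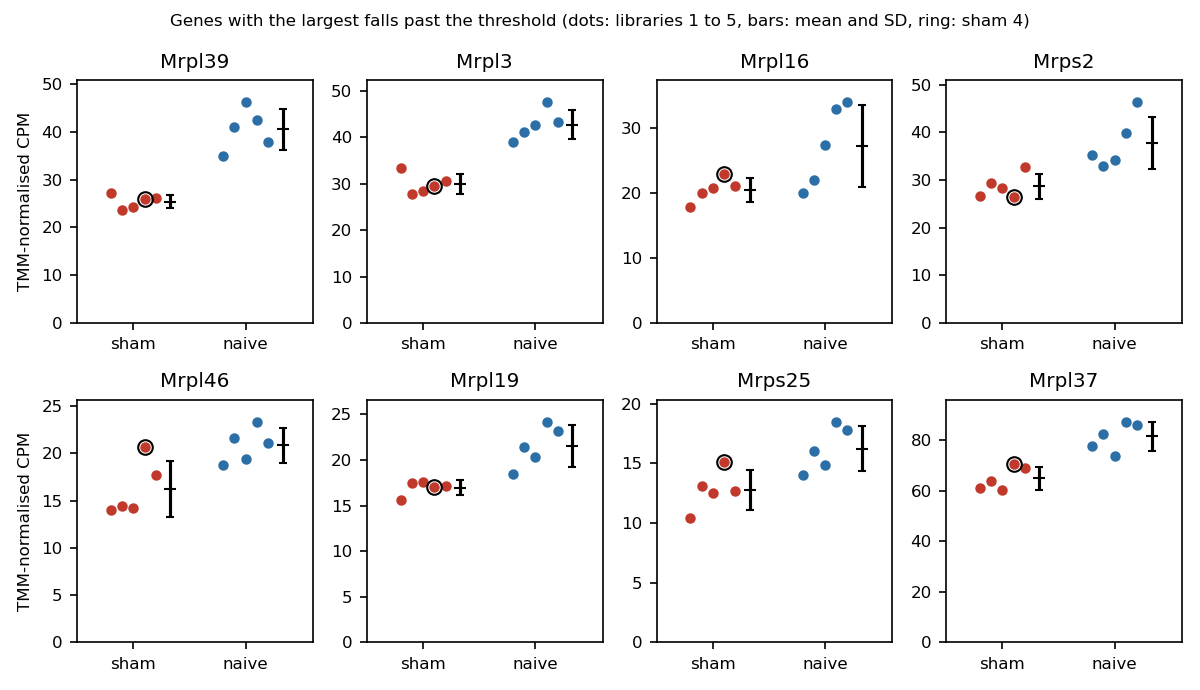
TMM-normalised CPM of the 8 mitochondrial ribosomal protein genes with the largest falls past adjusted p = 0.05, for the 5 sham libraries on the left and the 5 naive libraries on the right of each panel, with bars for mean and SD and a ring around sham 4. In Mrpl39, Mrpl3, Mrps2, Mrpl19 and Mrpl37 the groups do not overlap, whereas in Mrpl46 and Mrps25 sham 4 lies within the naive range.

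The other 11 members called lower had log2 fold changes between -0.33 and -0.25. In the large subunit they were Mrpl55, Mrpl9, Mrpl4, Mrpl12 and Mrpl10, and in the small subunit Mrps35, Mrps27, Mrps28, Mrps15, Mrps7 and Mrps9. Mrpl12, the counterpart of the bacterial L7/L12 stalk protein that contacts translation factors, stood at 121, 130, 117, 154 and 119 CPM in sham 1 to 5, against 166, 148, 155, 160 and 152 CPM in naive 1 to 5. Sham 4 was within the naive range and the other 4 sham libraries were below it, with a log2 fold change of -0.28 ± 0.09 (SE, edgeR adjusted p = 0.0204). Mrpl12 was not past the threshold without sham 3 or sham 5. Mrps9 was called in 7 of 22 alternatives and Mrps28 in 8, the fewest among the 19.

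The medians of the subunits were close to each other. The counts below stand against 15.5% of all tested genes called lower. Of 49 tested large subunit members 11 fell (22.4%), with a median log2 fold change of -0.25. They include Mrps18a and Mrps30 among the 49, which sit in the large subunit despite their names. Of 24 tested small subunit members 8 fell (33.3%), with a median of -0.24. Of 45 tested members listed with a bacterial counterpart 13 fell (28.9%, median -0.24), and of 28 listed without one 6 fell (21.4%, median -0.24). The 28 include Mrps18a and Mrps18b, although both are homologs of the bacterial protein S18. With library size alone the median of all members was 0.02 and that of all tested genes 0.22, as given above. Among the 13, 24 and 13 members with NRF1, ETS or YY1 letters in the promoter, the tested ones had medians of -0.23, -0.16 and -0.30, against -0.24, -0.26 and -0.23 for members with a promoter but without those letters, with 4 of 13, 2 of 21 and 4 of 12 called lower against 11 of 52, 13 of 44 and 11 of 53. None of these differences was tested.

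Mrps18a, Mrps18b and Mrps18c are 3 homologs of a single bacterial protein, S18. Mrps18a averaged 53.0 ± 4.53 CPM in sham and 60.5 ± 9.52 CPM in naive libraries (SD, n = 5 each), with a log2 fold change of -0.19 and an edgeR adjusted p of 0.185. Mrps18b averaged 8.70 ± 1.63 CPM in sham and 10.48 ± 3.68 CPM in naive libraries (log2 fold change -0.26, edgeR adjusted p = 0.362), and 30.5% of its exon bases are shared with Gm16279. Mrps18c averaged 5.10 ± 1.05 CPM in sham and 4.44 ± 0.705 CPM in naive libraries (log2 fold change 0.21, edgeR adjusted p = 0.397), and 23.2% of its exon bases are shared with Gm43511. None of the 3 passed. Mrps18c passed as higher with library size alone.

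Mrps30 averaged 1.90 ± 0.491 CPM in sham and 2.78 ± 1.54 CPM in naive libraries. Its log2 fold change of -0.53 ± 0.33 was among the most negative but did not pass (SE, edgeR adjusted p = 0.229), and its naive libraries ranged from 1.19 to 4.94 CPM. Mrps6, the counterpart of bacterial S6, averaged 7.67 ± 0.972 CPM in sham and 9.82 ± 1.94 CPM in naive libraries, with a log2 fold change of -0.36 that did not pass (edgeR adjusted p = 0.0741). Mrps36, named as a ribosomal protein but now known as a subunit of the 2-oxoglutarate dehydrogenase complex, averaged 6.86 ± 2.15 CPM in sham and 8.76 ± 2.73 CPM in naive libraries (log2 fold change -0.34, edgeR adjusted p = 0.276). Mrpl58, also called Ict1, a peptidyl-tRNA hydrolase that rescues stalled mitochondrial ribosomes, averaged 40.3 ± 7.01 CPM in sham and 44.2 ± 4.06 CPM in naive libraries (log2 fold change -0.13, edgeR adjusted p = 0.406).

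Mrpl52, picked out after its values were seen, had the most positive fold change. It stood at 42.6, 50.3, 42.3, 53.7 and 40.4 CPM in sham 1 to 5, against 40.0, 43.5, 41.1, 36.3 and 30.9 CPM in naive 1 to 5. The groups overlapped, and its log2 fold change of 0.26 ± 0.11 did not pass (SE, edgeR adjusted p = 0.0794). It passed as higher without sham 5, with library size alone, and in 2 further fits given in the closing section.

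Mrpl46 and Mrps11 lie head to head on chromosome 7, their annotated spans overlapping by 412 bases. Mrps11, the counterpart of bacterial S11, averaged 21.1 ± 2.098 CPM in sham and 22.01 ± 3.18 CPM in naive libraries, with a log2 fold change of -0.05 (edgeR adjusted p = 0.766). The log2 ratio of Mrpl46 to Mrps11 was -0.38 ± 0.14 in sham and -0.07 ± 0.30 in naive libraries (SD, n = 5 each). The difference of -0.31 was not past the threshold in an exact two-sided permutation test (p = 0.0873, where the smallest possible p is 0.00794). Mrpl46 shares 12.2% of its exon bases with Mrps11, and the reads of that stretch cannot be told apart.

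Levels of the members differed widely per length of the principal transcript. Over all 10 libraries they ranged 179-fold among the tested genes, between 0.704 CPM per kb for Mrps30 and 126 CPM per kb for Mrpl34. Mrpl34 was followed by Mrpl28 at 119 and Mrpl12 at 108 CPM per kb. Mrpl34, the counterpart of bacterial L34, averaged 70.6 ± 8.56 CPM in sham and 82.7 ± 7.29 CPM in naive libraries (log2 fold change -0.23, edgeR adjusted p = 0.0801). Mrpl28, the counterpart of bacterial L28, averaged 115 ± 11.6 CPM in sham and 139 ± 17.7 CPM in naive libraries (log2 fold change -0.26, edgeR adjusted p = 0.0557). Neither passed. Members above 30.2 CPM, the median member level, had a median log2 fold change of -0.25 with 14 of 37 called, and those at or below it -0.23 with 5 of 37 called. The median SE was 0.10 above and 0.14 below that level.

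The 4 members that were not tested had few reads. Mrps33 had 44 reads over the 5 sham libraries and 39 over the 5 naive libraries, the annotated Mrps23 gene 38 and 20, and Mrpl53 7 and 9. The second Mrps23 identifier had 0 reads in every library, which allows up to 0.139 to 0.310 CPM per library for a limit of 3 reads. Mrps33 stood at 0.475, Mrps23 at 0.269 and Mrpl53 at 0.168 CPM per kb over all libraries. Whether the repeated listing of Mrps23 left reads uncounted was not tested, and the limit above covers counting error only. The Mrps23 counts and level are therefore uncertain and may not reflect low expression. Of the exon bases of Mrpl53, 88.0% are shared with Gm42688.

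**Figure D4:**
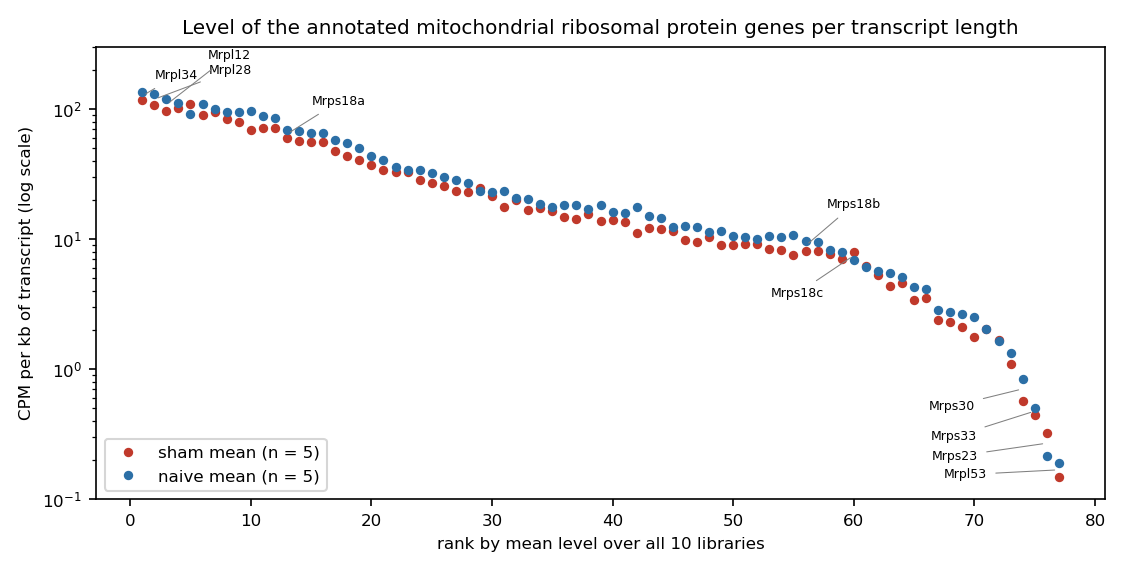
Mean level of the 77 annotated mitochondrial ribosomal protein genes in CPM per kb of principal transcript on a log scale, in sham libraries (red) and naive libraries (blue), ranked by the mean over all 10 libraries. The levels run from Mrpl34 at 126 to Mrpl53 at 0.168 CPM per kb. Under TMM scaling the sham mean lies a little below the naive mean at most ranks. With library size alone the median log2 fold change was 0.02 for tested members and 0.22 for all tested genes.

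Proteins of the mitochondrial ribosome whose symbols fall outside the naming rule were followed as well. Of 5 tested, 2 fell (40%, against 15.5% of all tested genes) and 0 rose (against 17.2%), with a median log2 fold change of -0.27. Ptcd3, a pentatricopeptide repeat protein of the small subunit, stood at 17.8, 16.9, 18.4, 19.4 and 19.7 CPM in sham 1 to 5, against 22.01, 27.0, 24.97, 33.5 and 29.9 CPM in naive 1 to 5. The groups did not overlap, and the log2 fold change was -0.58 ± 0.11 (SE, edgeR adjusted p = 8.59e-04). Dap3, a GTP-binding protein of the small subunit, averaged 60.6 ± 3.12 CPM in sham and 73.2 ± 1.38 CPM in naive libraries, again without overlap (log2 fold change -0.27 ± 0.07, edgeR adjusted p = 0.00744). Over all tested genes, 9.18% had all 5 sham libraries below all 5 naive libraries. Aurkaip1, at -0.16 (edgeR adjusted p = 0.234), and Chchd1, at -0.10 (edgeR adjusted p = 0.524), did not pass. The ribosomal RNAs, encoded by mitochondrial DNA, did not pass either. Log2 fold changes were -0.52 for mt-Rnr1 of the small subunit (edgeR adjusted p = 0.174) and -0.45 for mt-Rnr2 of the large subunit (edgeR adjusted p = 0.0621). The mt-Rnr2 transcript passed as lower in edgeR without sham 4, naive 1, naive 2 or naive 3, and in DESeq2.

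Genes that work on or with the mitochondrial ribosome were counted beside the background of 15.5% lower over all tested genes. Of 34 tested mitochondrial translation factors, aminoacyl-tRNA synthetases and amidotransferase subunits, 15 fell (44.1%) and 0 rose (median log2 fold change -0.32). Taco1, the translational activator of cytochrome oxidase subunit 1, stood at 25.5, 22.8, 21.1, 21.4 and 21.6 CPM in sham 1 to 5, against 33.4, 34.2, 31.1, 33.1 and 38.1 CPM in naive 1 to 5, without overlap (log2 fold change -0.60 ± 0.09, edgeR adjusted p = 8.76e-05). Gfm1, a mitochondrial elongation factor G, averaged 73.6 ± 1.48 CPM in sham and 106 ± 11.3 CPM in naive libraries (log2 fold change -0.53 ± 0.08, edgeR adjusted p = 1.30e-04), and Iars2, the mitochondrial isoleucyl-tRNA synthetase, was at -0.56 ± 0.10 (edgeR adjusted p = 6.20e-04, 24.2% of exon bases shared with Rab3gap2). Tufm, the elongation factor that delivers aminoacyl-tRNA, was at -0.25 and did not pass (edgeR adjusted p = 0.132). The leucyl-tRNA synthetase Lars2, picked out after its values were seen, averaged 2287 ± 1256 CPM in sham and 4737 ± 2151 CPM in naive libraries. Its groups overlapped and it did not pass (log2 fold change -1.05 ± 0.41, edgeR adjusted p = 0.0843). The median level of the genes in this list was 19.2 CPM, far below Lars2. Like mt-Rnr1 and mt-Rnr2, Lars2 was highest in sham 4 (4465 CPM) among sham and in naive 4 (8111 CPM) among naive libraries. Whether all reads counted for Lars2 come from the synthetase messenger RNA was not tested, so its level and fold change are uncertain. Without sham 2 the number of lower genes in this list was 9.

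Of 25 tested assembly and rRNA modification factors, 5 fell (20%, against 15.5% of all tested genes) and 0 rose (median log2 fold change -0.20). Mtg2, a GTPase of large subunit assembly, was at -0.36 (edgeR adjusted p = 0.00615), Noa1, a GTPase of small subunit assembly, at -0.31 (edgeR adjusted p = 0.0125) and Ybey, an endoribonuclease, at -0.51 (edgeR adjusted p = 0.0151). The number of lower genes was 3 without sham 2, sham 3 or sham 5. Of 18 tested genes of mitochondrial DNA maintenance, transcription and RNA processing, 8 fell (44.4%) and 0 rose (median -0.28). Lrpprc, which stabilises mitochondrial messenger RNAs, averaged 74.7 ± 10.7 CPM in sham and 110 ± 13.7 CPM in naive libraries, without overlap (log2 fold change -0.56 ± 0.11, edgeR adjusted p = 0.00125). The helicase Twnk was at -0.45 (edgeR adjusted p = 0.00209) and the RNA polymerase Polrmt at -0.28 (edgeR adjusted p = 0.0133), while the transcription factor Tfam, at -0.23, did not pass (edgeR adjusted p = 0.0847). The number lower was 3 without sham 2 or sham 5, 4 without sham 3, and 5 without naive 2 or naive 4. With library size alone 2 translation genes, 0 assembly genes and 0 genes of mitochondrial DNA and RNA were lower, and 2 assembly genes were higher.

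Among 11 nuclear regulators of mitochondrial genes, 2 rose (18.2%, against 17.2% of all tested genes) and 3 fell (27.3%, against 15.5%). Myc, a transcription factor that promotes growth and ribosome production, stood at 16.3, 17.2, 19.8, 16.5 and 15.9 CPM in sham 1 to 5, against 9.76, 9.11, 7.35, 6.43 and 4.48 CPM in naive 1 to 5. Every sham library was above every naive library (log2 fold change 1.22 ± 0.17, edgeR adjusted p = 4.07e-05). Pprc1, a coactivator related to PGC-1, was at 0.25 (edgeR adjusted p = 0.0369). Ppargc1a, which encodes the coactivator PGC-1 alpha, averaged 39.0 ± 2.55 CPM in sham and 54.5 ± 13.0 CPM in naive libraries, with overlap (log2 fold change -0.49 ± 0.13, edgeR adjusted p = 0.0107). The oestrogen-related receptors Esrrg and Esrrb fell by 0.47 and 0.39 on the log2 scale (edgeR adjusted p = 0.00234 and 0.00925). Nrf1, Gabpa and Yy1, given because their motifs were searched above, were at 0.06, -0.21 and -0.17 and did not pass (edgeR adjusted p = 0.676, 0.152 and 0.461).

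Respiratory chain genes and cytosolic ribosomal protein genes, both taken by symbol pattern, were set beside the members. Over all tested genes 15.5% fell and 17.2% rose. Of 95 tested respiratory chain genes 30 fell (31.6%) and 1 rose (median log2 fold change -0.29). Of 72 tested cytosolic ribosomal protein genes 1 fell and 23 rose (median 0.30), the opposite sign to the mitochondrial ribosomal proteins at -0.24 under TMM scaling. Library size alone put the mitochondrial median at 0.02 and that of all tested genes at 0.22. The cytosolic set was not recomputed under that scaling. Reads of cytosolic ribosomal protein genes can be shared with pseudogenes, so these values are uncertain.

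**Figure D5:**
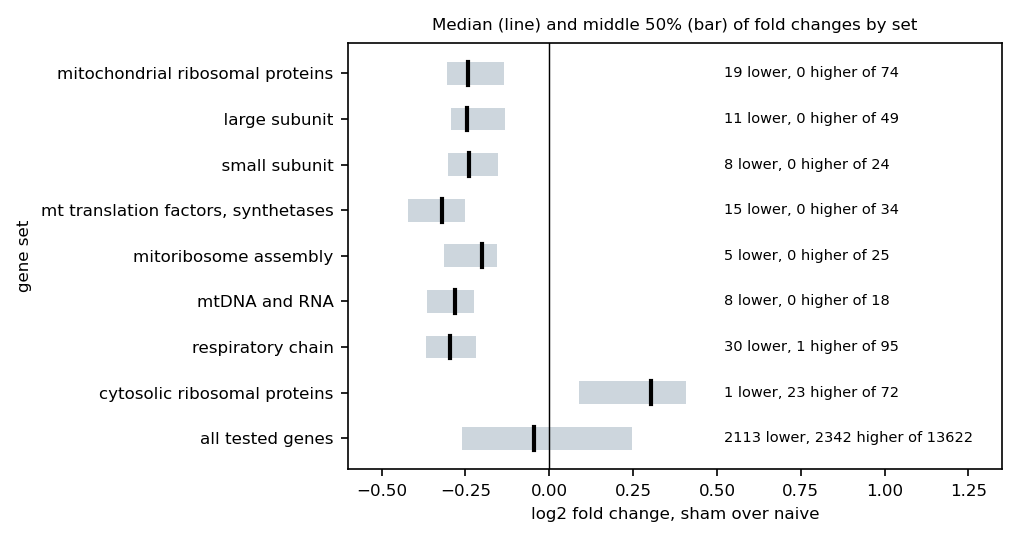
Median (black line) and middle 50% (grey bar) of the log2 fold changes of sham over naive ventricles under TMM scaling for each gene set, with the number of genes called lower and higher at adjusted p under 0.05. The mitochondrial ribosomal proteins and both their subunits centre near -0.24, beside the respiratory chain at -0.29 and opposite to the cytosolic ribosomal proteins at 0.30. With library size alone the mitochondrial ribosomal protein median was 0.02 and that of all tested genes 0.22.

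Markers of cell types moved with the groups. Of 10 cardiomyocyte markers 9 fell (median log2 fold change -0.42), with summed levels of 57690 to 66080 CPM in sham and 77400 to 81400 CPM in naive libraries. Of 8 fibroblast markers 6 rose (sums of 8074 to 13050 CPM in sham and 2243 to 2782 CPM in naive libraries), 9 of 9 macrophage markers rose (1337 to 1643 CPM in sham and 434 to 534 CPM in naive libraries), and 7 of 7 tested cell cycle genes rose. Of 7 endothelial markers 1 rose and 3 fell (1074 to 1181 CPM in sham and 1127 to 1377 CPM in naive libraries), and of 3 tested atrial markers 1 rose. The atrial marker Sln, which was not tested, had 1 read over the 5 sham libraries and 0 over the 5 naive libraries. Sham 4 lay with the naive libraries in the mitochondrial ribosomal proteins. Its cardiomyocyte sum was 66080 CPM, the highest of the sham libraries but below every naive library. The single cardiomyocyte markers differed in sham 4. Tnnt2 (8740 CPM) was the highest of all 10 libraries, and Tnni3 (6442 CPM) and Myl2 (5174 CPM) lay in the naive range. Myh6 (28790 CPM) and Ryr2 (907 CPM) were the lowest of all 10 libraries, and the remaining markers lay below every naive library. Sham 4 also had the lowest fibroblast sum of the sham libraries (8074 CPM), of which Col1a1 made up 6003 CPM. The single fibroblast markers differed. Col1a1 and Pdgfra were lowest in sham 4 among the sham libraries. Dcn (167.5 CPM), Dpt (140.3 CPM), Lum and Tcf21 were highest there, and Gsn and Mmp2 lay between. Sham 4 had the highest sum of mitochondrial ribosomal RNAs among the sham libraries (3157 CPM) and the most genes detected (24214). Its atrial sum of 138 CPM was the highest of all 10 libraries. The other sham libraries had 39.5 to 98.9 CPM and the naive libraries 41.3 to 56.8 CPM. Nppa, the atrial marker that rose, made up 130.7 CPM of the sum in sham 4 and shares 61.5% of its exon bases with Gm13054. Myl4 (4.02 CPM) and Myl7 (3.30 CPM) were also highest in sham 4 among all 10 libraries. In bulk ventricle, fewer cells of a type and less RNA per cell cannot be told apart. The part of these markers in the lower mitochondrial ribosomal protein levels was not tested.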

How the data were processed

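Polyadenylated RNA of 10 ventricles was sequenced as single-end reads without strand information, per the labels' protocols. The authors deposited raw read counts for each Ensembl gene (HTSeq, GRCm38), per the file headers, and had neither pooled nor normalised them. Per the submitters' processing notes, the tools included TopHat2 2.1.1, Bowtie2, HTSeq, edgeR and DESeq, with no roles stated. The annotation release and the strand setting were not given in the sources used here. A deposited column of GC content, in percent, served only for a GC correction.

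Among 41264 rows, 574 were repeats of an identifier with equal counts and were collapsed. Genes with a minimum count of 10 in edgeR's filterByExpr (minimum total 15) were kept, which left 13622. Sham was compared with naive in edgeR 4.0.16 (R 4.3.3) with TMM factors and the robust quasi-likelihood F test, without a replicate block, adjusting p over all tested genes at 0.05. SE was taken as the absolute fitted log2 value divided by the root of the F statistic. DESeq2 1.42.0 and other alternatives are described in the closing section. Positions and shared exon bases came from GENCODE M21, of the same build, and levels per kb from the length of its principal transcript. Members of the same group differed by more than sampling noise, with a smallest chi-square per degree of freedom of 9.93, so all 10 libraries were used.

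Genes were named if they were among the 8 with the largest rise or fall past the threshold, the 3 most or least abundant per length, or on a short list by role. The members and lists were chosen with earlier results of these data known. Within groups the samples are separate hearts, the intervals of fold changes include the spread between hearts, and the limit for a count of 0 covers counting error only. More than 20% of exon bases overlap another gene in 10 members, and 3 symbols have named pseudogenes in the table. Members sharing at most 5% of exon bases had a median log2 fold change of -0.24, with 11 of 50 lower, and those sharing more -0.24, with 8 of 24. The values of another listed gene outside the naming rule are not reported here.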

Additional observations from a re-analysis of the deposited data

Results flagged for a closer look

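In 86 groups of 5 libraries that were examined (each gene of the naming rule given with the processing, in sham and in naive libraries), 7 had a highest or lowest library far from the others, where chance flags about 1 in 20. Mrpl19 was low in sham 1, at 15.6 CPM, with the other sham libraries at 17.1 to 17.6. Mrpl53 was high in naive 4, at 0.470 CPM, with the other naive libraries at 0 to 0.123, which rests on few reads. Mrps18c was high in naive 4, at 5.64 CPM, with the other naive libraries at 3.79 to 4.31. Aurkaip1 was high in sham 4, at 80.4 CPM, with the other sham libraries at 55.4 to 60.4, and low in naive 1, at 64.3 CPM, with the other naive libraries at 70.4 to 72.9. Chchd1 was high in sham 4, at 38.3 CPM, with the other sham libraries at 25.7 to 28.1, and high in naive 4, at 33.6 CPM, with the other naive libraries at 30.2 to 31.1.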

How the results depend on the processing

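The counts and median of the members, the counts of the translation, assembly and mitochondrial DNA and RNA lists, and the genes named by rule were recomputed under 22 alternatives, 1 of them added after seeing the data. The splits of the members and the other lists were not. The number of members higher in sham was 0, except 4 with library size alone (Mrpl17, Mrpl20, Mrpl52 and Mrps18c), 1 with the replicate block and 1 with the GC correction and replicate block (Mrpl52 in both), and 0 to 1 leaving out 1 library. The number lower was 19 and became 2 with library size alone, 9 without a filter, 34 with the replicate block, 36 with the GC correction and replicate block, 38 without naive 1 and sham 4, and 5 to 30 leaving out 1 library. The share of members lower was 2.7% with library size alone, against 2.08% of all tested genes, and 12.2% against 5.83% without a filter. It was 45.9% against 20.6% with the replicate block and 48.6% against 21.8% with the GC correction and replicate block. Without naive 1 and sham 4 it was 51.4% against 15.7%. The median log2 fold change of the members stayed between -0.25 and -0.21 under other settings, was -0.29 to -0.20 leaving out 1 library and -0.29 without naive 1 and sham 4, and was 0.022 with library size alone, where the median of all genes was 0.22. For the translation list the number lower was 2 with library size alone and 9 to 17 leaving out 1 library. For the assembly list it was 0 with library size alone, with 2 higher, 1 without a filter, 8 with the GC correction and replicate block, and 3 to 7 leaving out 1 library. For the list of mitochondrial DNA and RNA it was 0 with library size alone, 3 without a filter and 3 to 9 leaving out 1 library. With library size alone the sign reversed for Mrpl34 (0.039), Mrpl28 (0.005), Mrps18a (0.071), Mrpl58 (0.135), Aurkaip1 (0.099), Chchd1 (0.162), Tfam (0.035) and Tufm (0.02). The cause of these changes was not tested. Sham and naive libraries of the same number correlated in their deviations at 0.227, 0.035, 0.008, 0.293 and 0.292, 3 of 5 over 0.1, and 3 of 5 matched their own number best. The labels state no pairing, and the main fit used no replicate block. Whether libraries of the same number share a batch was not settled by these values. The 4 untested members and low ones such as Mrps30 had few reads, which limits the precision of their values.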
